A study of Homo sapiens with 4 samples.

Results

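The DNAJ genes encode the J proteins, also called HSP40 co-chaperones. On the arrays used here they were taken as every non-control probe whose gene name in the scanner output was DNAJA, DNAJB or DNAJC followed by digits alone. This gave 35 genes and 64 probes, of 30970 genes and 50238 probes in all: 5 genes of class A, 12 of class B and 18 of class C. The measurements came from A549, a human lung adenocarcinoma cell line, in 2 control samples described as untreated and in 2 samples treated with embelin (15 µM for 4 h). Embelin is a plant benzoquinone known as an inhibitor of XIAP, an inhibitor of caspases, and the comparison asks which transcripts differed early in treatment. Both groups were grown in minimum essential medium that was changed to a lower serum content before treatment, and no other cell line, genotype or vehicle is named in the labels. RNA of each sample was labelled with Cy3 and hybridized to 1 array.

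A J protein binds a client protein or a site in the cell and, through its J domain, stimulates the ATPase of an HSP70 chaperone, so that HSP70 closes on the client there. Class A members keep the full domain order of bacterial DnaJ, class B members keep the J domain and a glycine-rich region, and class C members share only the J domain. Classes A and B include general folding co-chaperones of the cytosol, several of them heat-inducible through heat shock factor. They also include members of the mitochondrion and of the endoplasmic reticulum. Class C holds mainly specialists of a single compartment or task.

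A probe entered the test where the scanner software called it well above background in both samples of 1 group or of both groups, which held for 53 of the 64 probes. They left 31 of the 35 genes for the test: 4 of class A, 9 of class B and all 18 of class C. DNAJA4, whose 3 probes were well above background on 0 arrays, and DNAJB7, DNAJB8 and DNAJB13 were not well above background and were not tested. The name DNAJA5 on the arrays belongs to the gene now called DNAJC21, a ribosome assembly factor, so that it is class A by the name on the array and class C by its current name. Other genes with a current DNAJ symbol, whose name on the array did not meet the rule, are given separately below.

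After embelin, 1 of the 31 tested DNAJ genes rose after adjustment, beside 1.81% of all genes tested called in either direction. That call was kept under 3 of 15 alternative settings. Another 3, all general co-chaperones of the cytosol, were at least 2-fold lower at an unadjusted p under 0.05. The same held for 3.99% of all genes tested. DNAJB2, which carries ubiquitin-binding motifs and passes misfolded clients to the proteasome, was 3.22-fold higher. DNAJB1, the main heat-inducible partner of HSP70, was 2.86-fold lower, DNAJB4, a J protein described as a suppressor of invasion in lung adenocarcinoma cells, was 2.30-fold lower, and DNAJA1, a farnesylated partner of constitutive HSP70, was 2.21-fold lower. No other member differed by 2-fold or more at an unadjusted p under 0.05.

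The windows of 250 bases upstream of the RefSeq start of these 4 genes are shown because 3 of them were lower together and 1 was higher. They are RefSeq sequences on build GRCh38.p14, written 5′ to 3′ on the strand of the gene. They lie at chr9:33025023-33025272 on the + strand for DNAJA1, chr19:14529272-14529521 on the - strand for DNAJB1, chr1:77978925-77979174 on the + strand for DNAJB4 and chr2:219279116-219279365 on the + strand for DNAJB2. Capitals mark a match to a heat shock unit, searched as GAANNTTC and as TTCNNGAA, which each read the same on both strands and may overlap each other.
DNAJA1: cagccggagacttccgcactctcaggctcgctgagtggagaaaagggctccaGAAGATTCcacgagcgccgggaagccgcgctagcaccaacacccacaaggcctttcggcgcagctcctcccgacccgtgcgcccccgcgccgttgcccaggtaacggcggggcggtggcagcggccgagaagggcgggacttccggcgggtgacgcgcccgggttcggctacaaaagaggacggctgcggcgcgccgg
DNAJB1: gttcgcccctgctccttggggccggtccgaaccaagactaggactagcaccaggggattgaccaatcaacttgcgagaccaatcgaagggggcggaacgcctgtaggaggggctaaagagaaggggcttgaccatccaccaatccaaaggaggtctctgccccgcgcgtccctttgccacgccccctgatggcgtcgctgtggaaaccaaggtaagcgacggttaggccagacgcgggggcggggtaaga
DNAJB4: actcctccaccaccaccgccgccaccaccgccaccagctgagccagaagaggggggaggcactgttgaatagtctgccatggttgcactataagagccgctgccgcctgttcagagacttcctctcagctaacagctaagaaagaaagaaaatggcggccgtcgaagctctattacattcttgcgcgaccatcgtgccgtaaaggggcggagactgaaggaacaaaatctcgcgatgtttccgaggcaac
DNAJB2: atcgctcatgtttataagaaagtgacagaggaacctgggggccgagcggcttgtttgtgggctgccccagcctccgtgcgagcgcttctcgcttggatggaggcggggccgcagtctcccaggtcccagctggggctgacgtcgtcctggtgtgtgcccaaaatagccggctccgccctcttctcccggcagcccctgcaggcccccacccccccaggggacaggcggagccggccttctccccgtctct
The DNAJA1 window held 1 match, GAAGATTC, whose last base lies at position -191 counted from the start. The letters searched were in none of the other 3 windows. Only 1 start per gene was searched, and other starts of these genes may hold the letters. Whether the start is that of the transcript the probe reads was not checked. Of the 35 members 34 matched a RefSeq promoter, and 4 of these 34 (11.8%) held either unit, namely DNAJA1, DNAJB6, DNAJB7 and DNAJC15, beside 11.7% of all 27305 promoters. An endoplasmic reticulum stress element (CCAAT, 9 bases and CCACG, on either strand) was in 0 of the 34 windows and in 0.0806% of all promoters. With so rare a match, the 0 does not set the members apart from other genes. A match of letters describes the window and does not show binding.

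Signals are given as log2 of the background-subtracted intensity after each array was scaled to the same 75th percentile, and are not comparable between genes. The test was limma's moderated test with p adjusted by the Benjamini-Hochberg method over all 17649 genes tested. Because nothing in the labels says that the replicates were separate cultures, the p-values may measure technical spread only. With 2 arrays against 2, a two-sided exact permutation test cannot go below 0.333. The epithelial markers KRT7, KRT8, KRT18, EPCAM and CDH1 were all detected and differed by -0.56 to -0.12 on the log2 scale. Of the markers of other cell types, 0 of 3 endothelial, 2 of 4 immune (CD14 and CD3E) and 1 of 3 fibroblast markers (COL1A1) were bright enough to test. COL1A1 was 6.38 and 6.27 in the controls and 7.56 and 7.69 after embelin (limma adjusted p = 0.055), and the part of such cells in the results was not tested. Probes well above background made up 66.7% and 50.3% of the total in the controls and 51.2% and 66.4% after embelin, so the dimmer arrays lay in both groups. The control arrays lay at the outer and the embelin arrays at the inner positions of 1 slide, so that this placing and the treatment cannot be told apart.

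**Figure D1:**
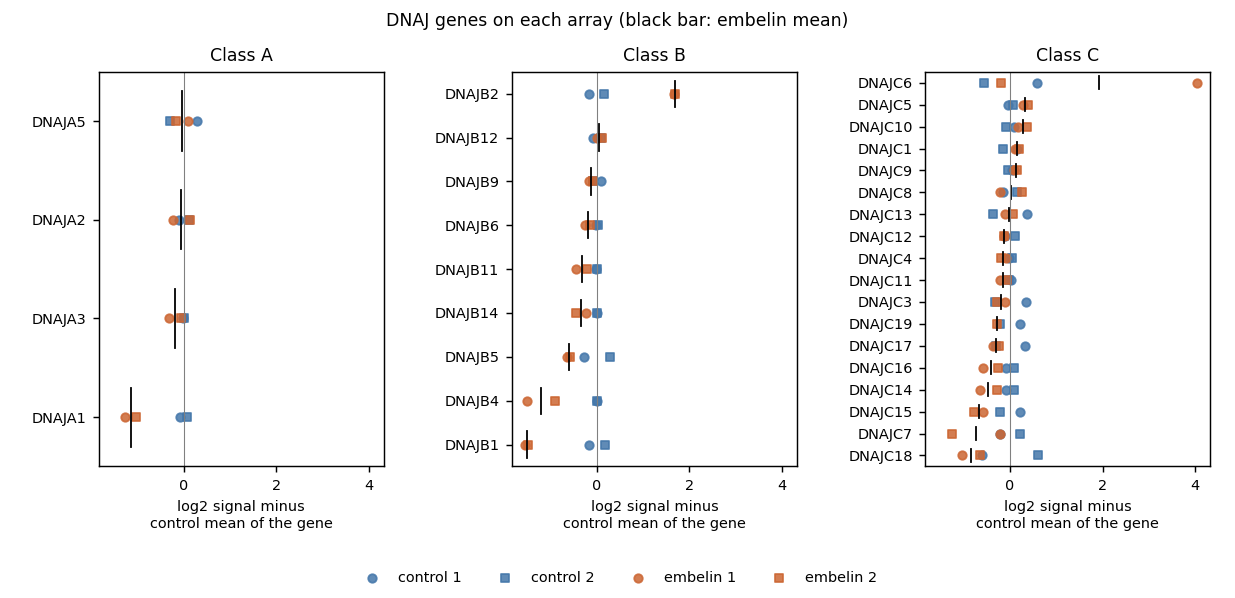
Log2 signal of the 31 tested DNAJ genes on each array, minus the mean of the gene over the 2 control arrays, by class. Circles are replicate 1 and squares replicate 2, blue is control and orange embelin, and the black bar is the embelin mean. The embelin arrays of DNAJB2 lie together to the right of both controls, those of DNAJA1, DNAJB1 and DNAJB4 to the left, and 1 embelin array of DNAJC6 lies alone at 4.05.

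DNAJB2 had a log2 signal of 12.10 and 12.42 in the controls and of 13.94 and 13.96 after embelin. Both embelin arrays lay above both control arrays, and they differed from each other by less than the controls did. The log2 fold change was 1.69 ± 0.19 (SE, n = 2 and 2), and the adjusted p by limma was 0.048. DNAJB2 was the 1 member of 31 (3.23%) called after adjustment, beside 1.81% of all genes tested, and it was also the 1 member at least 2-fold higher at an unadjusted p under 0.05 (3.23%, beside 4.27% of all genes). A second DNAJB2 probe read 7.11 and 8.10 in the controls and 9.29 and 9.60 after embelin, a difference of 1.84 in the same direction, and the probes share no run longer than 7 of their 60 bases. The call was close to the threshold: over the 15 alternative settings the adjusted p of DNAJB2 ran from 0.00386 to 0.403, with a log2 fold change of 1.52 to 1.85. It was 0.103 without control replicate 1, 0.165 without control replicate 2, 0.235 without embelin replicate 1 and 0.133 without embelin replicate 2, where 0 of all genes tested were called.

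DNAJB1 read 11.60 and 11.94 in the controls and 10.22 and 10.29 after embelin. Both embelin arrays were lower than both controls, and the gap was several times the spread of either group (SD 0.24 and 0.05). The log2 fold change was -1.51 ± 0.20, with an adjusted p by limma of 0.055, just outside the threshold. DNAJB1 had 1 probe on the array.

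DNAJA1 read 14.94 and 15.09 in the controls and 13.75 and 13.98 after embelin, again with no overlap between the groups. Its log2 fold change was -1.15 ± 0.18 with an adjusted p by limma of 0.074. A second DNAJA1 probe gave -1.19, the dimmest read 13.57 and 13.73 in the controls and 12.55 and 12.74 after embelin, and the embelin arrays were lower on each of the 3 probes. Of the 4 windows searched, that of DNAJA1 held a heat shock unit, as did 11.7% of all promoters. Other starts of the genes were not searched.

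DNAJB4 read 8.61 on both control arrays and 7.10 and 7.72 after embelin. The embelin arrays differed from each other by more than the controls did, but both were lower. The log2 fold change was -1.20 ± 0.27 with an adjusted p by limma of 0.121, and its second probe gave -1.41. DNAJA1, DNAJB1 and DNAJB4 were the 3 members (9.68%) at least 2-fold lower at an unadjusted p under 0.05, beside 3.99% of all genes tested. None of the 3 was called after adjustment in the main comparison. DNAJA1 and DNAJB1 were called under 3 of the 15 alternative settings, with adjusted p of 0.00958 to 0.47 for DNAJA1 and 0.00902 to 0.417 for DNAJB1 over all 15. DNAJB4 was called under none of them (0.059 to 0.562).

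**Figure D2:**
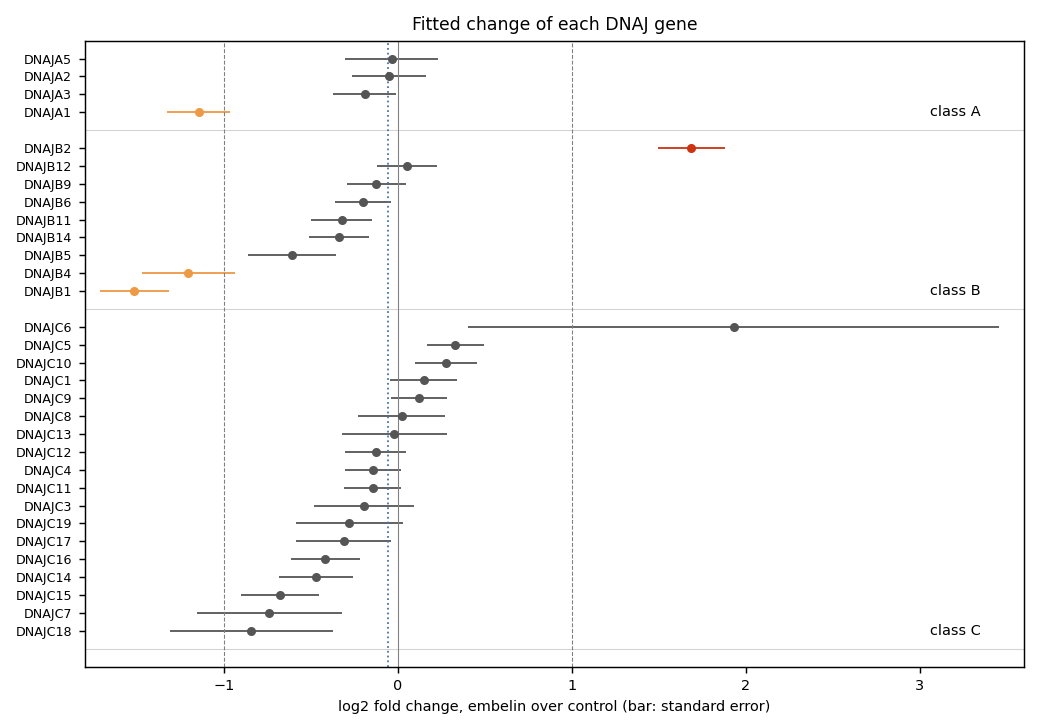
Log2 fold change, embelin over control, of the 31 tested DNAJ genes by class, with the standard error as a bar. Red marks the adjusted call (DNAJB2, 1.69), orange the genes at least 2-fold lower at an unadjusted p under 0.05 (DNAJA1, DNAJB1 and DNAJB4), dashed lines a 2-fold difference and the dotted line the median of all genes, -0.06.

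Over the family, 23 of the 31 members had a negative and 8 a positive log2 fold change (74.2% negative, beside 56.1% of all genes tested), and the median was -0.19 beside -0.06 over all genes tested. Of the 30 members with a value on all 4 arrays, both embelin arrays were lower than both controls in 17 (56.7%), beside 30.7% of all genes, and higher in 4, beside 21.1%. Most of these differences were small, and 5 members had an unadjusted p under 0.05 by limma, beside 19.5% of all genes: DNAJA1, DNAJB1, DNAJB2, DNAJB4 and DNAJC15. In DNAJB9 control replicate 2 and embelin replicate 2 read 11.425 and 11.422. Of the genes counted as lower, other kept probes were lower for DNAJA1 and DNAJB4 and higher for DNAJC12 and DNAJC18. Those of DNAJB14, DNAJC4 and DNAJC11 overlapped, and those of DNAJB6 were mixed. The median residual SD was 0.17 over the members and 0.21 over all genes, and its part in these counts was not tested.

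The counts of negative values in each class stand beside the same 56.1%. Here and in the lists below, counts of calls after adjustment stand beside 1.81% of all genes tested. Counts at an unadjusted p under 0.05 stand beside 19.5%. In class A, all 4 tested genes had a negative log2 fold change, with a median of -0.12 and a range from -1.15 to -0.04, although DNAJA5 turned to 0.01 with quantile normalization and to 0.02 with normexp background correction. DNAJA2, a cytosolic co-chaperone, read 11.24 and 11.45 in the controls and 11.11 and 11.47 after embelin, with overlapping groups and a log2 fold change of -0.05 ± 0.21. DNAJA3, the mitochondrial member of the class, read 13.25 and 13.26 against 12.93 and 13.20, which did not overlap but differed by only -0.19 ± 0.18. DNAJA5 (now DNAJC21), the highest of the class, read 9.08 and 8.51 against 8.89 and 8.63. It overlapped at -0.04 ± 0.27, and without it the class median was -0.19. No class A gene was called after adjustment by limma, and DNAJA1 alone had an unadjusted p under 0.05.

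In class B, 7 of the 9 tested genes had a negative log2 fold change, with a median of -0.32 and a range from -1.51 to 1.69. The embelin arrays were lower than both controls in these 7 genes and higher in DNAJB2, beside 30.7% lower and 21.1% higher over all genes. DNAJB5, a close relative of DNAJB1 and DNAJB4, read 9.94 and 10.51 in the controls and 9.59 and 9.65 after embelin, a difference of -0.61 ± 0.25 with an adjusted p by limma of 0.303. DNAJB6, which keeps polyglutamine proteins from aggregating, differed by -0.20 ± 0.16, and the others of the class sit in the endoplasmic reticulum and are given with that compartment. The exception was DNAJB12, whose groups overlapped at 0.05 ± 0.17.

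In class C, 12 of the 18 genes had a negative and 6 a positive log2 fold change, with a median of -0.14, and none was called after adjustment by limma. DNAJC13, at -0.02, turned to 0.01 with quantile normalization. The highest value was that of DNAJC6, auxilin, which helps HSP70 strip clathrin from vesicles and is known mainly from neurons. It read 4.71 and 3.56 in the controls and 8.18 and 3.95 after embelin, so 1 embelin array alone was high and the other lay between the controls. Its log2 fold change was 1.93 ± 1.53, and without embelin replicate 1 it was -0.19. Its probe was well above background on 1 of 2 control arrays, and a second DNAJC6 probe on 0 arrays. The lowest value was that of DNAJC18, a membrane J protein of the endoplasmic reticulum, which read 8.90 and 10.11 against 8.46 and 8.86 and differed by -0.84 ± 0.47 with an adjusted p by limma of 0.412. The DNAJC18 controls were far apart: leaving out control replicate 1 gave a difference of -1.45, and leaving out control replicate 2 gave -0.235. A second probe of the gene gave 7.20 and 6.53 against 7.39 and 7.84, a difference of 0.75 in the opposite direction.

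DNAJC15, a J protein of the mitochondrial inner membrane known as a brake on the respiratory chain, was the class C gene with an unadjusted p under 0.05. It read 8.29 and 7.88 in the controls and 7.50 and 7.32 after embelin, a difference of -0.68 ± 0.22 with an adjusted p by limma of 0.219. DNAJC7, which carries repeats that bind both HSP70 and HSP90, read 12.57 and 12.99 against 12.55 and 11.52. Its difference of -0.74 ± 0.42 came mostly from embelin replicate 2, and it was -0.22 without that array.

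By place in the cell, the 10 members assigned to the endoplasmic reticulum had a median log2 fold change of -0.26. By limma 0 of them were called after adjustment, beside 1.81% of all genes tested. An unadjusted p under 0.05 was reached by 0 of them, beside 19.5% of all genes tested. DNAJB9, a co-chaperone induced by the unfolded protein response, differed by -0.12 ± 0.17, and DNAJB11, which works on newly made secreted proteins, by -0.32 ± 0.18. DNAJC3, an inhibitor of the kinase PERK, differed by -0.20 ± 0.29 with overlapping groups, whereas DNAJC10, which reduces disulfide bonds, was 11.76 and 11.60 against 11.86 and 12.06 and differed by 0.28 ± 0.18. The membrane members DNAJB12 and DNAJB14 were at 0.05 and -0.34. The 5 mitochondrial members DNAJA3, DNAJC4, DNAJC11, DNAJC15 and DNAJC19 had a negative value each, from -0.68 to -0.14, with a median of -0.19, although DNAJC19 turned to 0.28 where outlier spots were kept. Both embelin arrays were lower in the 4 of them with a value on all arrays, beside 30.7% of all genes, while DNAJC19, a part of the import motor, lacked embelin replicate 1, whose spot was marked as an outlier. These values are those of the brightest probe. The groups overlapped on second kept probes of DNAJC4 (-0.20) and DNAJC11 (0.05). A second kept probe of DNAJC19, with a value on all arrays, gave -0.07 with both embelin arrays lower.

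Among the members of vesicle traffic, DNAJC5, cysteine string protein, read 10.86 and 10.97 in the controls and 11.19 and 11.31 after embelin. Its difference of 0.33 ± 0.17 did not pass (adjusted p by limma of 0.376), although both embelin arrays were higher, and its other probes gave 0.27 and 0.27. One of these shares 59 of 60 bases with the first probe and is nearly the same measurement. DNAJC13, an endosomal J protein, overlapped at -0.02 ± 0.30. The 4 members tied to the nucleus, splicing, ribosomes or histones (DNAJC8, DNAJC9, DNAJC17 and DNAJA5) ran from -0.31 to 0.12, and only the histone co-chaperone DNAJC9 had groups that did not overlap, at 0.12 ± 0.16.

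Of the 31 tested genes, 15 had more than 1 kept probe, and the brightest stood for the gene. In 9 of the 15 all kept probes had the same sign, and in 11 they lay within 0.5 on the log2 scale. The probes of DNAJC12, a co-chaperone of aromatic amino acid hydroxylases, divided by transcript. The probe for NM_021800 read 12.59 and 12.82 in the controls and 12.57 and 12.58 after embelin, a difference of -0.13. A probe for NM_201262 read 8.65 and 8.61 against 9.81 and 9.20, a difference of 0.87, and another for the same transcript read 8.34 and 8.28 against 9.32 and 8.98, a difference of 0.84. The NM_201262 probes share a run of 20 bases, and neither passed when each kept probe was tested on its own (adjusted p by limma of 0.218 and 0.159). The probes of DNAJB6 also differed: the one for NM_058246 read 9.94 and 10.36 against 9.03 and 9.51, a difference of -0.88 (adjusted p 0.224), while the 3 probes for NM_005494 gave -0.20, -0.15 and 0.00. The difference between the transcripts was not tested in either gene.

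**Figure D3:**
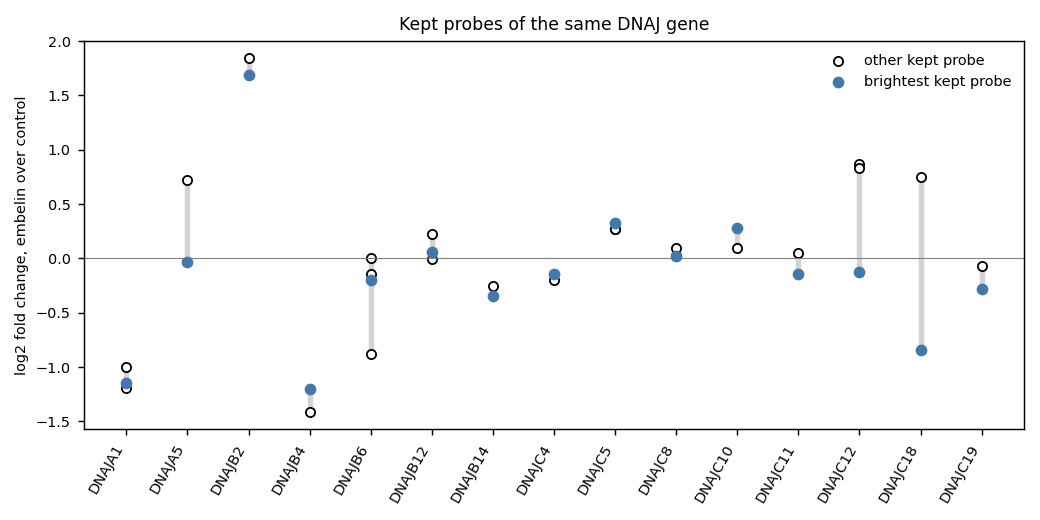
Log2 fold change, embelin over control, of every kept probe of the 15 DNAJ genes with more than 1 kept probe. Filled points are the brightest probe, which stood for the gene, and open points the others. The probes of DNAJA1, DNAJB2 and DNAJB4 lie close together, while those of DNAJC12 and DNAJC18 lie on both sides of 0.

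Genes that carry a current DNAJ symbol but whose name on the array did not meet the rule, most of them filed under older names, numbered 10, and 7 were tested. They ranged from -0.32 for DNAJC30, a mitochondrial gene, to 0.54 for DNAJC25, with a median of 0.09, and 0 were called after adjustment or had an unadjusted p under 0.05 by limma. The 7 include DNAJC25-GNG10 (0.13), whose symbol joins DNAJC25 to GNG10, and whether its probe reads transcripts of GNG10 alone was not tested. The 4 J proteins with unrelated symbols had a median of -0.14, and 0 passed on either count. Among them, HSCB, which serves iron-sulfur cluster transfer, was at -0.37, and SEC63, the partner of the translocation channel, at -0.15.

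Among genes of the HSP70 family, HSPA1A, HSPA1B and HSPA2 held larger differences than any DNAJ gene. The other tested genes of the family ran from -0.87 to 0.90 on the log2 scale. Of 13 tested HSP70 genes 3 fell after adjustment by limma and 0 rose, beside 1.81% of all genes called in either direction, and the median log2 fold change was -0.47. HSPA1A, the stress-inducible HSP70, read 15.80 and 16.06 in the controls and 11.62 and 11.96 after embelin, a log2 fold change of -4.14 ± 0.22 (adjusted p 0.020). HSPA1B was at -3.97 ± 0.30 (adjusted p 0.027) and HSPA2 at -2.15 ± 0.25 (adjusted p 0.048). HSPA1A and HSPA1B are near-identical in sequence, so that their probes may read each other's transcript. Over the 15 alternative settings their adjusted p ran from 0.000521 to 0.327, from 0.00138 to 0.332 and from 0.00434 to 0.4, and without any 1 array 0 of all genes were called. Each of the 3 differed by more than DNAJB1, the DNAJ gene with the lowest value.

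Among 14 nucleotide exchange factors and HSP70 cofactors the median was -0.26, 0 were called after adjustment by limma and 4 had an unadjusted p under 0.05, as did 19.5% of all genes tested. BAG2 was at -1.18 (adjusted p 0.057) and BAG3 at -1.04 (adjusted p 0.124), both BAG domain exchange factors, and the mitochondrial exchange factor GRPEL1 was at 0.69 (adjusted p 0.176). Among 16 genes of heat shock factor, its targets and HSP90 the median was -0.17, with 0 calls after adjustment and 4 at an unadjusted p under 0.05. CRYAB, a small heat shock protein, was at 1.65 ± 0.23 (adjusted p 0.059), with 1 of 2 control arrays well above background, while the HSP90 cofactor CHORDC1 was at -0.72 and the transcription factor HSF2 at -0.68. Among 18 chaperones and regulators of the endoplasmic reticulum the median was -0.06, equal to that of all genes, with 0 calls after adjustment by limma and 2 at an unadjusted p under 0.05. CRELD2 and SDF2L1 were at -0.49 each, and XBP1, a transcription factor of the unfolded protein response, was at 0.48. Differences between these lists and the DNAJ classes were not tested.

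**Figure D4:**
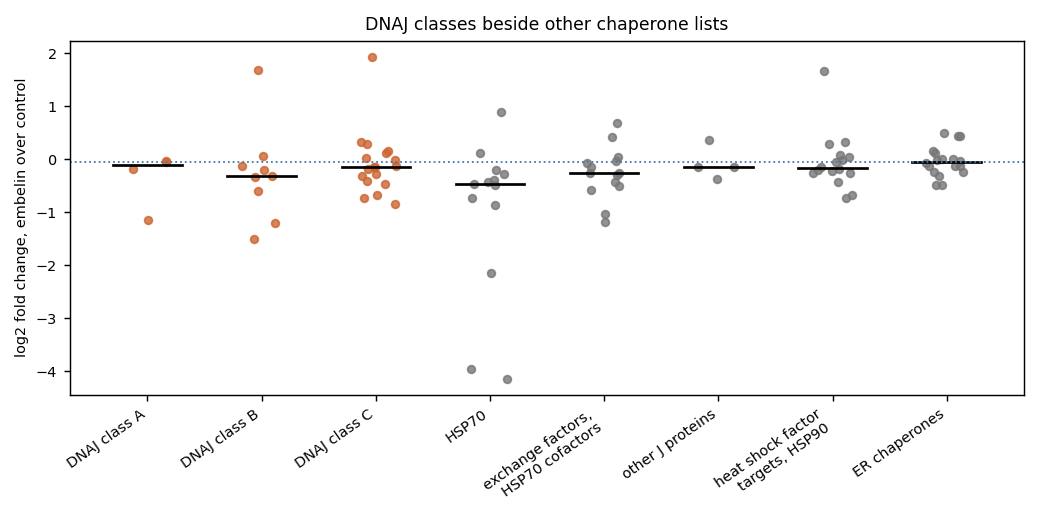
Log2 fold change, embelin over control, of each tested gene of the DNAJ classes (orange) and of the other chaperone lists (grey). Black bars are the median of each list and the dotted line that of all genes (-0.06). The HSP70 list reaches -4.14 (HSPA1A), below the lowest DNAJ gene (DNAJB1, -1.51).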

How the data were processed

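The deposited scanner files hold spot intensities written by Agilent Feature Extraction 10.7.3.1 (per the file headers), with background removed, spatial trends corrected and surrogates in place of dim spots, but no normalization between arrays. The authors also deposited a table of these intensities averaged per probe, used as an alternative. Outlier spots were dropped, each array was scaled to a common 75th percentile, values under 1 were set to 1, and log2 was taken. A probe was kept if both samples of either group were well above background (26146 of 50238), and the brightest kept probe stood for a gene. The 17649 genes left were fitted by limma 3.58.1 under R 4.3.3, using lmFit and eBayes, with Benjamini-Hochberg adjustment over all of them and a threshold of 0.05. The fit was also run on simulated data, with changes larger than that of any DNAJ gene. That run does not show how well changes of the size seen here are recovered. The number of arrays limits the precision.

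Values on every array were given for members called after adjustment, for members at least 2-fold different without overlap, and for the highest and lowest of each class. Other members given by array were chosen after their values were seen. From each further list, called genes and the 3 largest differences were named. A gene covered by this rule is not reported here, although its list's count and median include it. The members and lists were chosen with earlier results of these data known. Gene names came from a RefSeq table through accessions (28595 probes), through another probe of the same name (2341) or from the files (19302). Student's t-test, named in the study's methods, and the other settings below were run as alternatives.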

Additional observations from a re-analysis of the deposited data

How the results depend on the processing

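The number of DNAJ genes called after adjustment was 1 and depended on the settings. It was 3 with normexp background correction, 3 with a filter asking for all 4 arrays and 3 with limma's trend and robust options, each time DNAJA1, DNAJB1 and DNAJB2. It was 0 with quantile normalization, with the deposited table of probe values, with no filter on dim probes, with the methods' t-test, with the replicate number as a block, with arrays of like background as a block (the crossed pairing), with the mean over the kept probes, with outlier spots kept, and on leaving out each array in turn (0 to 0). Over all genes tested, 221 higher and 99 lower calls became 452 and 271 with normexp, 419 and 345 with the filter on all 4 arrays, 566 and 495 with trend and robust, 126 and 33 with the deposited table, 137 and 40 with outlier spots kept, and 0 with no filter, with the t-test, under both blocks and without any 1 array. Deviations of arrays with the same replicate number correlated at r = 0.175 over 17298 genes. With 2 pairs this does not show pairing, so the numbers were not taken to pair the samples. The count of members at least 2-fold different at an unadjusted p under 0.05, 4, ran from 3 to 5 over the 15 alternatives. The class medians kept their sign, from -0.277 to -0.0515 in class A, from -0.337 to -0.17 in class B (-0.17 with no filter, which admits 3 dim genes) and from -0.205 to -0.0461 in class C. On leaving out each array they ran from -0.277 to -0.112, from -0.337 to -0.203 and from -0.205 to -0.088. Genes near 0 turned: DNAJA5 was 0.0194 with normexp, 0.00569 with quantile normalization and 0.34 as the mean over probes, DNAJC13 was 0.00223 with normexp and 0.0115 with quantile normalization, DNAJC19 was 0.27 with the deposited table and 0.28 with outlier spots kept, which restore embelin replicate 1, and DNAJC12 was 0.53 as the mean over probes. Leaving out each array turned DNAJA2 (-0.23 to 0.13), DNAJA5 (-0.32 to 0.25), DNAJB12 (-0.0305 to 0.14), DNAJC1 (-0.00487 to 0.30), DNAJC3 (-0.53 to 0.14), DNAJC6 (-0.19 to 4.05), DNAJC8 (-0.22 to 0.26), DNAJC13 (-0.38 to 0.34), DNAJC17 (-0.63 to 0.000919) and SEC63 (-0.43 to 0.14). The cause of the other changes was not tested. With 1 array left in a group, that array is assumed to vary like the other group. Dim probes give the least certain values, as for DNAJC6.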
